A study of Mus musculus with 6 samples.

Results

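Expression of 10 genes of the contractile cytoskeleton and of its mechanosensitive transcription was followed in 6 RNA-Seq libraries of mouse embryonic stem cells (ESCs) and embryoid bodies (EBs). They were the table entries whose gene symbol is *Acta2*, *Actg2*, *Tagln*, *Cnn1*, *Myl9*, *Tpm1*, *Des*, *Ctgf*, *Cyr61* or *Thbs1*. Each symbol had 1 entry among the 21639 entries of the table. Of the 10, 7 encode proteins of the contractile apparatus or cytoskeleton and 3 encode secreted proteins known as YAP targets. Of the 10, 8 had a mean of at least 1 RPKM (mapped reads per kilobase of transcript, scaled to library size) over the 6 libraries, and *Actg2* and *Cnn1* did not.

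The study asked how the acidic patch of the histone variant H2A.Z acts in ESC differentiation. The H2A.Z WT cells (WT below) carry a doxycycline-inducible, YFP-tagged H2A.Z transgene of wild-type sequence. In the H2A.Z AP3 cells (AP3) the same kind of transgene has the substitutions G92N, D97N and S98K, which put the residues of histone H2A in place of those of H2A.Z. The transgenic cells were sorted for YFP, and short hairpins against the 3′ UTR of the endogenous gene were introduced into them, so that these lines differ in the transgene and share the hairpin design. The labels call the third line H2AZ KD (KD), for knockdown, and give no transgene for it. All lines are labelled with the strain V6.5 (129SvJaexC57BL/6), and the transgenic lines were made in KH2 ESCs. ESCs (D0) were adherent on gelatin in serum with LIF, and their last passage was without the fibroblast feeder cells used before. EBs (D3) were grown for 3 days in suspension in the same serum-containing medium without LIF. Substrate, LIF, feeder history and time therefore cannot be told apart in a comparison of D3 with D0.

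There was 1 library for each combination of line and day, so the differences could not be checked against replicates and no p-value is given. The libraries held an estimated 17.7 to 29.1 M reads, the deepest being AP3 D0. A ratio of RPKM values is given with its exact 95% counting interval, which covers the sampling of reads only and not differences between cultures. A gene was counted as higher or lower when the ratio passed 1.5-fold, as log2 of RPKM with a pseudocount of 0.001. *H2afz*, the gene targeted by the hairpins, had D0 levels of 279 RPKM (WT), 343 RPKM (library labelled KD) and 304 RPKM (AP3), and D3 levels of 258, 236 and 394 RPKM. The D0 library labelled KD thus held no less *H2afz* RNA than WT, and KD is used here as the label of its libraries. The table does not separate transgene from endogenous RNA. The pluripotency factor *Pou5f1* lay between 358 and 540 RPKM in all libraries, those of D3 included. Of 4 pluripotency genes, 0 were lower past 1.5-fold at D3 in WT, 2 in KD (*Esrrb* and *Zfp42*) and 1 in AP3 (*Esrrb*), where 16.5%, 16.2% and 16.3% of all entries were lower.

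Smooth muscle contracts when phosphorylated myosin pulls on actin filaments, and genes of this apparatus are controlled through serum response factor (SRF). SRF binds a DNA site called the CArG box, and its cofactors of the myocardin family enter the nucleus when free actin monomers are used up by filament assembly. YAP and its relative TAZ are held in the cytoplasm by the Hippo kinases, and once in the nucleus they act through TEAD factors, which bind the MCAT element. Both routes respond to serum, cell spreading and cytoskeletal tension, and some targets, such as *Cyr61* and *Ctgf*, are known to answer to both. ESCs are not muscle, but their actin cytoskeleton uses several of the same genes.

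Promoters of the 10 genes were read from the mm9 assembly, in a window from 250 bases before to 50 bases after the annotated start, to show which genes carry these sites close to it. The CArG box was searched as CC, 6 bases that are each A or T, and GG, and the MCAT element as CATTCC or its complement GGAATG, both on either strand. A CArG box was found in 3 of the 10 windows, against 274 of all 19684 promoters searched (1.39%). An MCAT element was also found in 3 of the 10, against 2583 of all promoters (13.1%). The sites are given in runs of 30 bases, 5′ to 3′ on the strand of the gene, with the motif in capitals.
Actg2 (CArG box 68 bases before the start, chr6:83486308-83486337, minus strand): aaaaaaaacaCCTTATATGGtaatattgct
Actg2 (CArG box 31 bases before, chr6:83486271-83486300, minus strand): cgtcagctggCCTTTTTAGGgactctgttt
Tagln (CArG box 112 bases before, chr9:45744234-45744263, minus strand): agggtcctgcCCATAAAAGGtttttcccgg
Myl9 (CArG box 117 bases before, chr2:156601029-156601058, plus strand): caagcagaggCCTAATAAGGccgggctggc
Acta2 (MCAT element 183 bases before, chr19:34329992-34330021, minus strand): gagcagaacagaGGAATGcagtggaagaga
Ctgf (MCAT element 105 bases before, chr10:24315131-24315160, plus strand): ttttcagacggaGGAATGtggagtgtcaag
Ctgf (MCAT element 31 bases before, chr10:24315205-24315234, plus strand): ggaggaatgtgaGGAATGtccctgtttgtg
Cyr61 (MCAT element 103 bases before, chr3:145313035-145313064, minus strand): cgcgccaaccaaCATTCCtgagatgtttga
The last *Ctgf* run also holds, in lower case, another MCAT element 40 bases before the start. *Tagln* has a second CArG box at base 12 of the transcript. No window held both motifs in these exact letters, and the windows of *Cnn1*, *Des*, *Thbs1* and *Tpm1* held neither. Variants of the motifs were not searched for, so any of the windows may hold further sites that differ from these letters. For *Tpm1*, which has 21 annotated transcripts, the window is that of its longest coding transcript, which starts inside the gene. A match is a description of the sequence, and binding was not measured here.

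*Acta2* (chr19:34315580-34329826) encodes smooth muscle alpha actin. Its D0 levels were 12.6 RPKM (WT), 6.76 RPKM (KD) and 8.71 RPKM (AP3), and its D3 levels 4.26, 3.58 and 5.54 RPKM. All of the D3 values lay below all of the D0 values. From D0 to D3 it was 2.96-fold lower in WT (interval, 2.45 to 3.60), 1.89-fold lower in KD (1.54 to 2.33) and 1.57-fold lower in AP3 (1.32 to 1.87). With a pseudocount of 1 the change in AP3 was -0.57 on the log2 scale, within the threshold. The D0 level in KD was 1.86-fold below WT (1.58 to 2.20). At D3, the neighbours KD and WT did not differ beyond counting error (ratio 0.841, 0.669 to 1.06). The coding sequence of *Acta2* is 85.4% identical to *Acta1*, 84.2% to *Actg2* and 82.8% to *Actb*, so that some short reads could be shared with these genes, and the extent was not measured.

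*Actg2* (chr6:83462899-83486259), the enteric smooth muscle gamma actin, carries 2 CArG boxes in the window shown above but was near the detection limit. The D0 levels were 0.330, 0.0326 and 0.104 RPKM and the D3 levels 0.101, 0.0984 and 0.0569 RPKM, in the order WT, KD, AP3. With the median length of its annotated transcripts these values are worth 5.04 reads in WT D0 and at most 2.60 reads in each of the other libraries. From D0 to D3 in WT the ratio was 0.306, with an interval from 0.0343 to 2.20. In all 9 comparisons its interval held 1 at that length, and in 8 of them with the longest transcript, KD against WT at D0 being the exception (0.00256 to 0.848). No direction is read from *Actg2* at this depth, although its values pass 1.5-fold in several of the counts given below.

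*Tagln* (chr9:45737711-45744141) encodes transgelin, or SM22 alpha, an actin-binding protein of smooth muscle. Its D0 levels were 16.4, 6.74 and 5.70 RPKM and its D3 levels 2.80, 1.90 and 8.41 RPKM, again in the order WT, KD, AP3. WT was the highest of the lines at D0, and AP3 was the highest at D3. From D0 to D3 *Tagln* was 5.85-fold lower in WT (4.66 to 7.47) and 3.55-fold lower in KD (2.71 to 4.69). In AP3 it was instead 1.48-fold higher (1.24 to 1.76). AP3 was therefore 2.87-fold below WT at D0 (2.46 to 3.35) and 3.0-fold above it at D3 (2.36 to 3.90). The lowest D0 levels, in AP3 and KD, did not differ beyond counting error (ratio 0.846, 0.703 to 1.02).

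The table places *Tagln* in a locus that starts at 45671773 on chromosome 9, outside the annotated gene, and that spans the neighbours *Rnf214* and *Pcsk7*. These have entries of their own. *Pcsk7* lay between 1.36 and 2.71 RPKM, and its values were higher at D3 than at D0 in each line. *Rnf214* went from 6.46 to 5.32 RPKM in WT, from 6.00 to 6.99 in KD and from 5.22 to 5.64 in AP3. Its directions in WT and AP3 were those of *Tagln*, with much smaller changes, and that in KD was not. *Pcsk7* did not have the pattern of *Tagln*. Annotated exons of *Tagln* and *Pcsk7*, on opposite strands, share 65 of the 1586 exon bases of *Tagln*.

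*Cnn1* (chr9:21903725-21914074) encodes calponin, which binds actin and slows the myosin motor in smooth muscle. The D0 levels were 0.489, 1.05 and 0.307 RPKM and the D3 levels 0.306, 0.763 and 1.31 RPKM. These levels are low and rest on 14.3 to 59.1 estimated reads. The highest level was in AP3 D3, and both KD libraries lay above both WT libraries. From D0 to D3, *Cnn1* was 4.26-fold higher in AP3 (2.56 to 7.42). In WT and KD the D3 to D0 ratios were 0.626 (0.282 to 1.24) and 0.723 (0.474 to 1.11), and both intervals hold 1. At D3 the ratio to WT was 4.26 for AP3 (2.40 to 8.43) and 2.49 for KD (1.39 to 5.07). At D0 it was 2.16 for KD (1.25 to 3.73), while for AP3 the interval of 0.317 to 1.17 around 0.626 holds 1. With a pseudocount of 1 the log2 ratio of KD to WT was 0.46 at D0 and 0.43 at D3, both within the threshold.

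*Tpm1* (chr9:66870397-66897213), the gene of alpha tropomyosin, which lies along actin filaments in muscle and non-muscle cells, was among the highest of the 10 genes. Its D0 levels were 89.1, 71.7 and 61.7 RPKM and its D3 levels 78.8, 72.0 and 75.4 RPKM. Its highest value was 1.44 times its lowest, the narrowest range of the 10 genes, and it passed 1.5-fold in none of the 9 comparisons. *Tpm1* makes muscle and non-muscle isoforms, which the sum over the gene does not resolve.

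*Myl9* (chr2:156601156-156607394) encodes a regulatory light chain of smooth muscle and non-muscle myosin. The D0 levels were 3.64, 2.90 and 2.98 RPKM and the D3 levels 1.70, 2.12 and 2.54 RPKM, each D3 value being below each D0 value. It was 2.14-fold lower at D3 in WT (1.13 to 4.01). In KD and AP3 the D3 to D0 ratios of 0.729 (0.414 to 1.3) and 0.853 (0.484 to 1.4) were within counting error.

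*Des* (chr1:75356904-75365154) encodes desmin, the intermediate filament protein of muscle. Its D0 levels were 11.1, 10.6 and 15.6 RPKM and its D3 levels 10.8, 7.43 and 6.82 RPKM. AP3 thus had the highest level at D0 and the lowest at D3, and was 2.29-fold lower at D3 (1.84 to 2.86). The D3 to D0 ratio was 0.970 in WT (0.782 to 1.21) and 0.701 in KD (0.560 to 0.876). At D3, AP3 was 1.58-fold below WT (1.24 to 2.03), and AP3 and KD did not differ beyond counting error (ratio 0.918, 0.712 to 1.18). An annotated gene on the opposite strand, *Gm15179*, shares 220 of the 3754 exon bases of *Des*.

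*Ctgf* (chr10:24315248-24318489), which encodes connective tissue growth factor, a matrix-associated protein, has 3 MCAT elements in its window. The D0 levels were 88.8, 65.0 and 64.0 RPKM and the D3 levels 20.1, 19.2 and 19.9 RPKM. The 3 lines were at close levels at D3, with ratios to WT of 0.992 for AP3 (0.877 to 1.12) and 0.954 for KD (0.850 to 1.07). From D0 to D3 it was 4.42-fold lower in WT (4.02 to 4.86), 3.39-fold in KD (3.09 to 3.71) and 3.21-fold in AP3 (2.92 to 3.53). The predicted gene *Gm15270*, on the opposite strand, shares 570 of its 2490 exon bases.

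*Cyr61* (chr3:145309935-145312949), the gene of a related matricellular protein, had the highest D0 level of the 10 genes. Its D0 levels were 115, 96.7 and 93.7 RPKM and its D3 levels 9.68, 12.9 and 14.4 RPKM. It was 11.9-fold lower at D3 in WT (10.7 to 13.2), 7.51-fold in KD (6.90 to 8.18) and 6.51-fold in AP3 (5.97 to 7.12). The lines were thus in reverse order on the 2 days, WT being the highest at D0 and the lowest at D3. At D0, KD and AP3 did not differ beyond counting error (ratio 0.969, 0.930 to 1.01).

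*Thbs1* (chr2:117937612-117952869) encodes thrombospondin 1, a matrix glycoprotein. The D0 levels were 16.8, 11.6 and 24.9 RPKM and the D3 levels 0.889, 1.02 and 1.90 RPKM. Its highest value was 28.0 times its lowest, the widest range of the 10 genes. From D0 to D3 it was 18.9-fold lower in WT (14.4 to 25.1), 11.4-fold in KD (9.09 to 14.6) and 13.1-fold in AP3 (10.9 to 15.9). On both days AP3 had the highest level. It was 2.15-fold above KD at D0 (1.98 to 2.34) and 1.87-fold at D3 (1.4 to 2.52). At D3 it was 2.14-fold above WT (1.54 to 2.98), and KD and WT did not differ beyond counting error (ratio 1.1, 0.800 to 1.62).

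**Figure D1:**
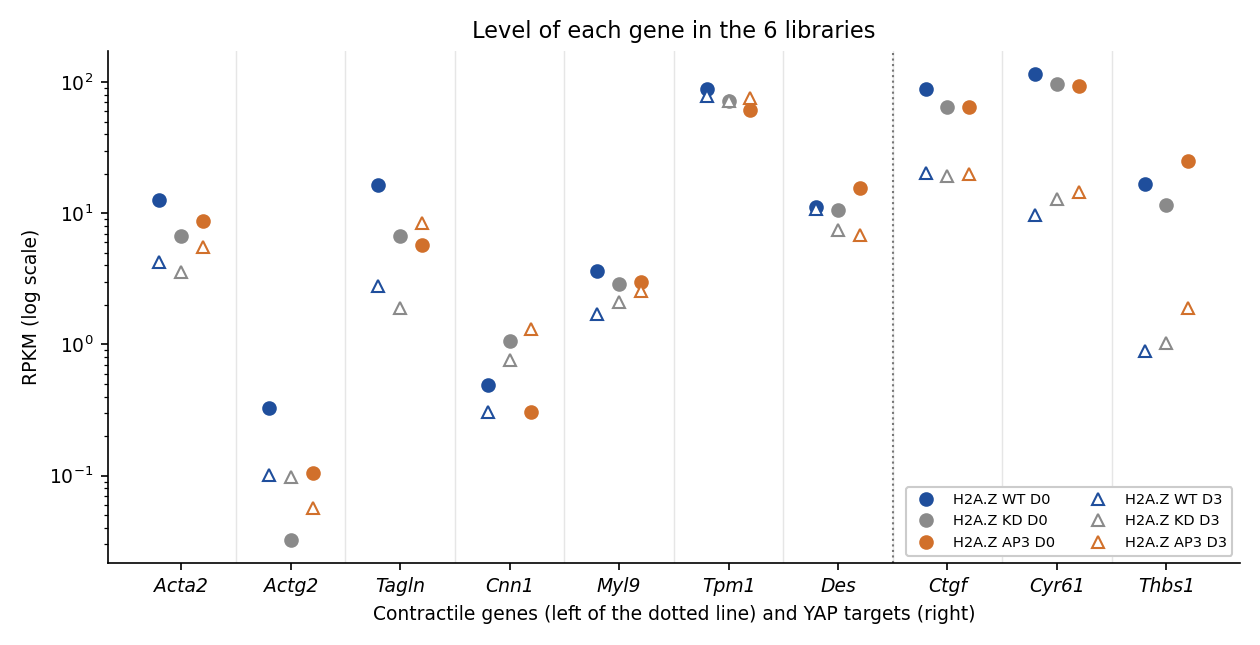
RPKM, which is per length, of each of the 10 genes (log axis) in the 6 libraries. Each point is 1 library, with filled circles for D0, open triangles for D3 and the line given by color. The 3 YAP targets on the right lie lower at D3 in all lines, *Tpm1* stays between 61.7 and 89.1 RPKM, and *Tagln* and *Cnn1* lie higher at D3 than at D0 in AP3 alone.

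The comparison of D3 with D0 shows how these genes stood when ESCs were aggregated into EBs. In WT, 8 of the 10 genes were lower at D3 and 0 were higher, where 16.5% and 14.1% of all entries passed 1.5-fold lower and higher. The 2 genes within 1.5-fold were *Tpm1* and *Des*. In KD, 5 of 10 were lower (*Acta2*, *Tagln*, *Ctgf*, *Cyr61* and *Thbs1*) against 16.2% of all entries, and 1 was higher, *Actg2*, against 14.0%. In AP3, 6 of 10 were lower (*Acta2*, *Actg2*, *Des*, *Ctgf*, *Cyr61* and *Thbs1*) against 16.3% of all entries, and 1 was higher, *Cnn1*, against 14.7%. The median log2 change of the 10 genes was -1.63 in WT, -0.71 in KD and -0.75 in AP3, and that of all entries was 0.0 in each line. Many of the entries are barely expressed, and the shares that were lower came to 9.53%, 8.86% and 11.5% among the 11842 entries averaging 1 RPKM or more. Of the 8 genes with such a mean, 6 were lower in WT, 5 in KD and 5 in AP3.

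*Ctgf*, *Cyr61* and *Thbs1* were lower at D3 in each of the lines, and their summed level went from 221 to 30.7 RPKM in WT, from 173 to 33.1 in KD and from 183 to 36.2 in AP3. *Acta2* also passed the threshold in each line, although by less. The summed level of the 7 contractile genes, most of which is *Tpm1*, went from 134 to 98.7 RPKM in WT, from 99.8 to 87.9 in KD and from 95.2 to 100.1 in AP3. Of the 10 genes, the log2 changes over time of AP3 and WT lay farthest apart for *Tagln*, *Cnn1* and *Des*. Whether these changes differ between lines beyond the variation between cultures was not tested.

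**Figure D2:**
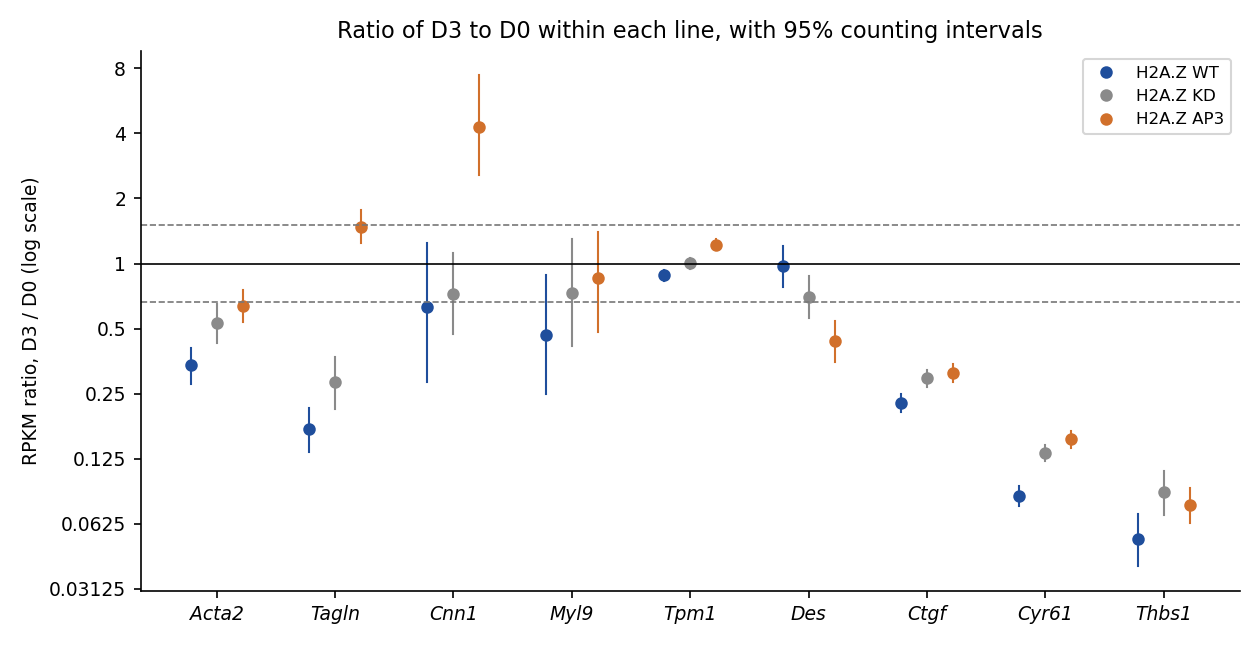
Ratio of RPKM at D3 to that at D0 (log axis) for 9 of the genes in each line, with exact 95% counting intervals as bars, a solid line at 1 and dashed lines at 1.5-fold. *Actg2* is left out because its values rest on 5.04 reads or fewer. All 9 ratios of *Ctgf*, *Cyr61* and *Thbs1* lie at or below 0.312, and *Cnn1* in AP3 stands alone at 4.26.

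The lines were then compared with WT on each day. Both use the WT library of that day, so a value that is particular to that library enters each of them. At D0, AP3 was lower for 3 of 10 genes (*Tagln*, *Cnn1* and *Actg2*) against 13.9% of all entries and higher for 0 against 11.1%. Of the 3, only *Tagln* had a counting interval that leaves out 1. The library labelled KD was lower for *Tagln*, *Acta2* and *Actg2*, 3 of 10 against 10.7% of all entries, and higher for *Cnn1*, 1 of 10 against 8.96%. *Tagln* was 2.43-fold lower there (2.06 to 2.88). The median log2 change of the 10 genes at D0 was -0.50 for AP3 and -0.39 for KD. *Ctgf* and *Cyr61* were below WT by less than the threshold, 1.39-fold and 1.23-fold in AP3 and 1.37-fold and 1.19-fold in KD. *Thbs1* was 1.48-fold above WT in AP3 (1.38 to 1.60) and 1.45-fold below it in KD (1.32 to 1.60).

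At D3, AP3 was higher than WT for 3 of 10 genes (*Tagln*, *Cnn1* and *Thbs1*) against 10.4% of all entries. It was lower for *Des* and *Actg2*, 2 of 10 against 11.7%. The median log2 change was 0.48. *Cyr61* and *Myl9* lay just inside the threshold, at 1.49-fold (1.3 to 1.70) and 1.5-fold (0.750 to 2.89) higher, and *Acta2* was 1.3-fold higher (1.05 to 1.63). In KD, 1 of 10 was higher, *Cnn1*, against 9.41% of all entries, and 0 were lower against 11.3%, with a median log2 change of -0.05. Inside the threshold, but with counting intervals that leave out 1, *Tagln* was 1.47-fold lower (1.07 to 2.03), *Tpm1* 1.09-fold lower (1.03 to 1.16), *Des* 1.45-fold lower (1.17 to 1.82) and *Cyr61* 1.33-fold higher (1.17 to 1.51).

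Directly compared at D0, AP3 was higher than KD for *Thbs1* and *Actg2*, 2 of 10 against 13.5% of all entries. It was lower for *Cnn1* (3.44-fold, 2.05 to 6.12), 1 of 10, against 13.5% as well. At D3 it was higher for *Tagln*, *Cnn1*, *Thbs1* and *Acta2*, 4 of 10 against 11.6% of all entries, and lower for *Actg2*, 1 of 10 against 11.1%. *Tagln* had the largest of these ratios, 4.43-fold (3.42 to 5.84), followed by *Thbs1*. *Cnn1* was 1.71-fold higher (1.13 to 2.55) and *Acta2* 1.55-fold (1.25 to 1.93). With a pseudocount of 1, *Tagln* alone passed the threshold at D3. The median log2 change of the 10 genes was 0.01 at D0 and 0.21 at D3.

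Among entries averaging 1 RPKM or more, which leave out *Actg2* and *Cnn1*, the shares past the threshold were smaller. For AP3 against WT, 0 of 8 genes were higher and 1 lower at D0 (6.8% and 5.49% of these entries), and 2 were higher and 1 lower at D3 (4.05% and 5.21%). For KD against WT the counts were 0 and 2 at D0 (2.94% and 4.02%) and 0 and 0 at D3 (3.23% and 4.53%). For AP3 against KD they were 1 and 0 at D0 (10.5% and 6.13%) and 3 and 0 at D3 (5.49% and 5.07%).

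**Figure D3:**
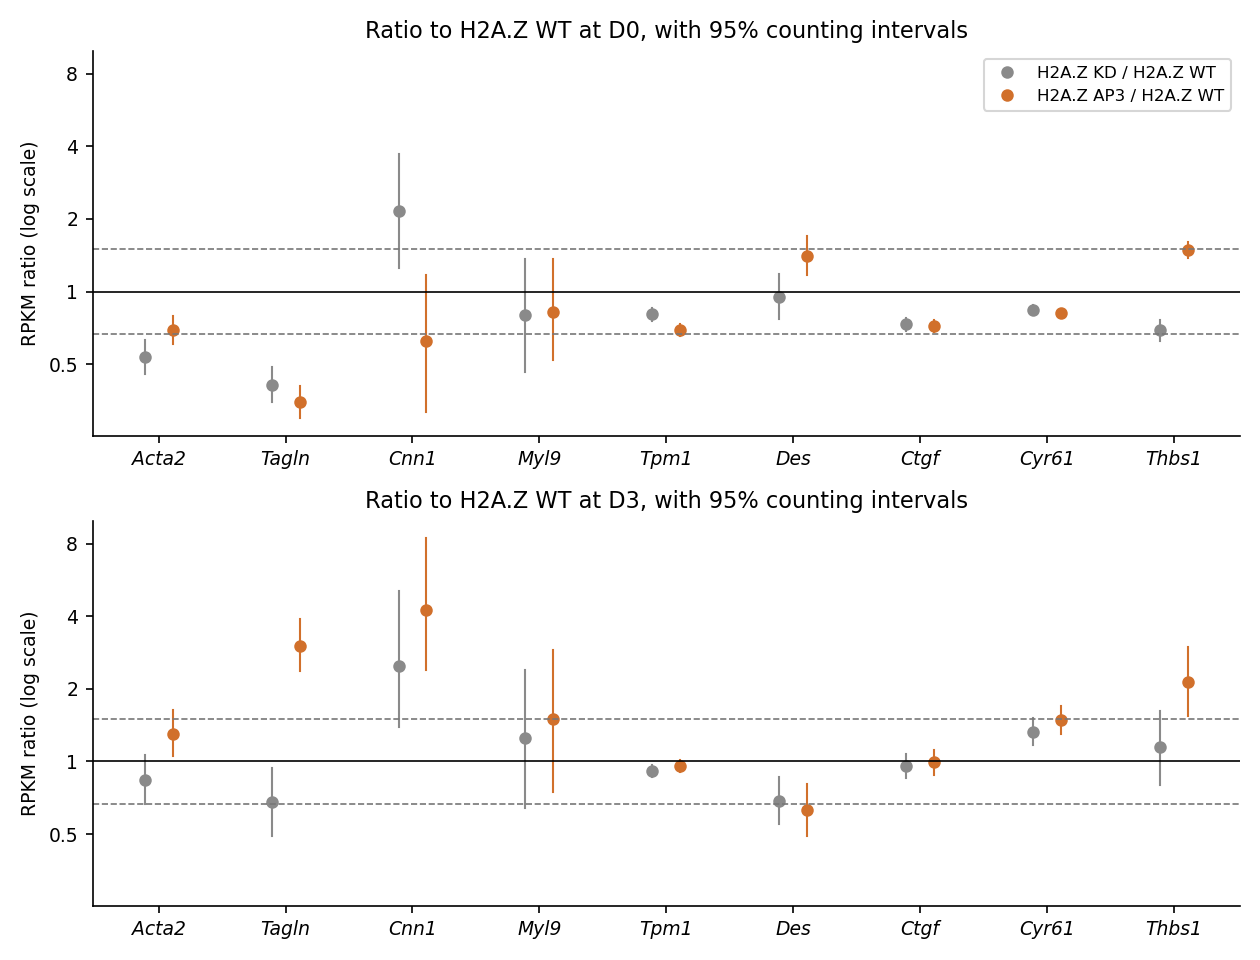
Ratio of RPKM in KD (gray) and AP3 (orange) to that in WT (log axis) at D0 (top) and D3 (bottom) for 9 of the genes, with exact 95% counting intervals, a solid line at 1 and dashed lines at 1.5-fold. *Actg2* is left out as above. *Tagln* in AP3 lies 2.87-fold below WT at D0 and 3.0-fold above it at D3, while *Ctgf* and *Tpm1* lie within 1.5-fold in every pair.

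Other genes of these pathways were described by lists of known targets and regulators, in which *Srf*, *Lats2* and *Ankrd1* each stand in more than one list. Of 29 other targets of SRF in the cytoskeleton, 6 were lower and 2 higher at D3 in WT, 6 and 3 in KD, and 6 and 5 in AP3. For all entries the shares that were lower and higher at D3 were 16.5% and 14.1% in WT, 16.2% and 14.0% in KD, and 16.3% and 14.7% in AP3, and the numbers of these targets that were lower are near that background. Their median log2 changes were -0.20, 0.01 and -0.06, nearer to 0 than those of the 7 contractile genes at -1.10, -0.47 and -0.23. Caldesmon (*Cald1*), which binds actin and tropomyosin, was lower in each line, from 26.4 to 11.2 RPKM in WT, from 15.2 to 8.47 in KD and from 24.4 to 13.5 in AP3. *Filip1l* was lower as well, from 2.67 to 0.473, from 1.32 to 0.439 and from 3.55 to 0.397 RPKM. *Fhl1*, a LIM domain protein of muscle, was higher in each line, from 11.4 to 18.8 RPKM in WT, from 8.27 to 27.2 in KD and from 12.8 to 21.9 in AP3. The widely used cytoplasmic actin gene *Actb* was at 958, 957 and 714 RPKM at D0 and 808, 814 and 1054 RPKM at D3.

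The 12 immediate early targets of SRF, which are switched on within minutes by serum and other stimuli, include transcription factors and feedback regulators. Of these, 11 were lower at D3 in WT, 12 in KD and 9 in AP3, and 0 were higher in any line, beside 16.5%, 16.2% and 16.3% of all entries that were lower. The median log2 changes were -2.83, -2.81 and -1.96. *Fos*, a subunit of the AP-1 transcription factor, went from 149 to 1.99 RPKM in WT, from 122 to 1.31 in KD and from 66.3 to 1.15 in AP3. *Fosb*, a close relative, went from 68.3 to 0.129, from 62.0 to 0.106 and from 32.7 to 0.117 RPKM. *Egr1*, a zinc finger transcription factor, went from 146 to 5.27, from 116 to 4.29 and from 79.5 to 9.52 RPKM. AP3 had the lowest D0 level of each of these, and 5 of the 12 genes were lower in it than in WT at D0, against 13.9% of all entries. At D3, 3 were higher and 1 lower in AP3 than in WT, against 10.4% and 11.7% of all entries.

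Of 25 other YAP targets, 24 were in the table under the symbols searched. At D3, 10 were lower and 4 higher in WT, 8 and 3 in KD, and 13 and 3 in AP3, with median log2 changes of -0.23, -0.14 and -0.81. *Axl*, a receptor tyrosine kinase, went from 4.13 to 0.720 RPKM in WT, from 2.79 to 0.607 in KD and from 6.19 to 1.25 in AP3. *Amotl2*, which encodes a protein that binds YAP, went from 61.8 to 21.4, from 58.3 to 27.5 and from 58.8 to 18.7 RPKM. *Lats2*, a Hippo kinase gene that is itself a YAP target, went from 2.73 to 0.603, from 2.47 to 0.767 and from 3.82 to 0.577 RPKM. The numbers that were higher are near the 14.1%, 14.0% and 14.7% of all entries, and those that were lower are above the 16.5%, 16.2% and 16.3%. Within D3, *F3*, the gene of tissue factor, was at 7.93 RPKM in AP3, below 13.6 RPKM in WT and 15.4 RPKM in KD. Between lines at D0, 0 of the 24 were higher and 5 lower in KD than in WT, against 8.96% and 10.7% of all entries, and 4 were higher and 0 lower in AP3 than in WT, against 11.1% and 13.9% of all entries. Against KD, 11 were higher in AP3 and 1 lower, against 13.5% of all entries in either direction, where *Thbs1* was higher too and *Ctgf* and *Cyr61* were at ratios of 0.984 and 0.969. At D3, 4 were higher and 5 lower in AP3 than in WT (10.4% and 11.7% of all entries), and 6 and 4 against KD (11.6% and 11.1%), so the counts did not lean to one side as they did at D0.

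**Figure D4:**
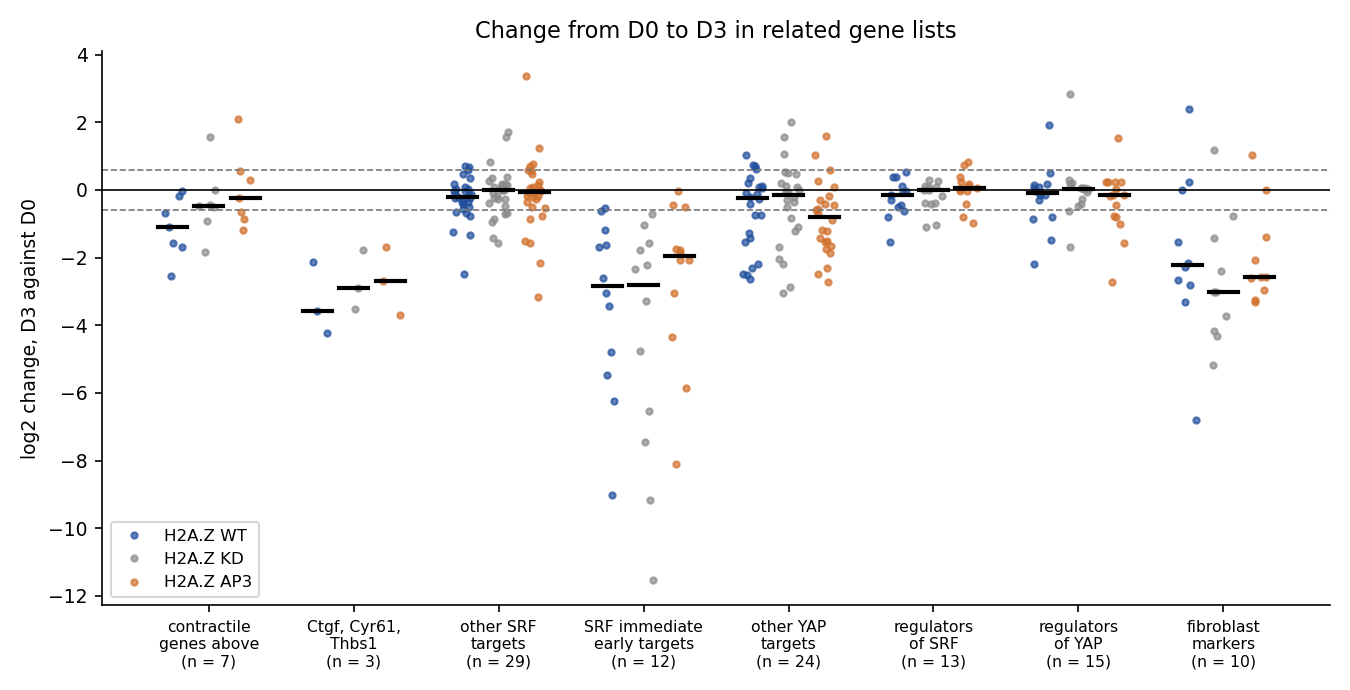
Log2 change from D0 to D3 (RPKM with a pseudocount of 0.001) of each gene in 8 lists, by line. Points are genes, black bars are medians over the genes of a list, dashed lines mark 1.5-fold, and the lowest point of KD is a gene listed at 0 RPKM at D3. The immediate early targets and fibroblast markers have the lowest medians beside *Ctgf*, *Cyr61* and *Thbs1*, and the medians of the regulators stay near 0.

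The medians of the regulators were near 0, at -0.15, -0.01 and 0.05 on the log2 scale for SRF and at -0.08, 0.02 and -0.15 for YAP in WT, KD and AP3. Of 13 regulators of SRF, 0 were higher and 3 lower at D3 in WT, 0 and 2 in KD, and 2 and 2 in AP3, to be read beside the same shares of all entries. *Srf* was at 16.9, 20.7 and 11.1 RPKM at D0 and 11.0, 10.2 and 10.9 RPKM at D3. Its cofactor genes *Mkl1* and *Mkl2* lay between 3.58 and 4.71 RPKM and between 2.87 and 4.42 RPKM, and *Myocd*, the cofactor of differentiated smooth muscle, was below 0.1 RPKM in all libraries. Of 15 regulators of YAP found, 1 was higher and 4 were lower at D3 in WT, 1 and 2 in KD, and 1 and 5 in AP3, beside 16.5%, 16.2% and 16.3% of all entries that were lower. *Yap1* itself lay between 36.7 and 44.7 RPKM, and *Wwtr1*, which encodes TAZ, between 12.0 and 20.4 RPKM. The regulator that was higher was *Amot*, whose product holds YAP at cell junctions, at 14.5 against 3.83 RPKM in WT, 37.2 against 5.21 in KD and 18.2 against 6.31 in AP3. RNA levels do not show where YAP or the SRF cofactors were in the cell.

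Genes that define differentiated smooth muscle were low except *Smtn*, and all of them are also in the lists of other SRF targets or SRF regulators above. *Myh11*, the smooth muscle myosin heavy chain, lay between 0.158 and 0.250 RPKM, *Lmod1* between 0.358 and 0.508 and *Synpo2* between 0.0576 and 0.606. *Smtn*, smoothelin, was at 13.2 to 16.0 RPKM and made up most of the sum of the 5 markers, which was 13.9 to 17.2 RPKM. The sum of 5 heart muscle markers was 1.23 to 2.84 RPKM and that of 4 skeletal muscle markers 0.173 to 0.360 RPKM. *Acta2*, *Tagln* and *Tpm1* were thus measured in libraries with little RNA of the myosin or the cofactor of smooth muscle.

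Several of these genes are also expressed by fibroblasts, and feeder fibroblasts were part of the culture before the last passage. The 10 fibroblast markers summed to 34.4, 28.3 and 57.0 RPKM at D0 and to 14.3, 8.14 and 11.5 RPKM at D3 in WT, KD and AP3. At D3, 7, 9 and 8 of the 10 were lower than at D0, where 16.5%, 16.2% and 16.3% of all entries were lower. *Col1a2* went from 12.9 to 1.3, from 11.8 to 0.591 and from 22.5 to 2.36 RPKM. *Lum* and *Postn* were at or near 0 in all libraries, at most 0.333 and 0.112 RPKM. *Thy1* was higher in each line, going from 1.74 to 9.19, from 2.42 to 5.48 and from 1.74 to 3.56 RPKM. Most of these markers were thus lower at D3 together with *Thbs1*, *Ctgf*, *Cyr61* and *Acta2*, and their part in those changes was not tested. Between lines at D0 their sum was highest in AP3, as *Thbs1* and *Des* were, whereas *Acta2*, *Tagln*, *Ctgf* and *Cyr61* were highest in WT. At D3, 5 of the 10 were higher and 1 lower in AP3 than in WT, against 10.4% and 11.7% of all entries, with a median log2 change of 0.59, in the library where *Tagln* and *Cnn1* were also higher. *Thy1* made up 9.19 of the summed 14.3 RPKM in WT and 3.56 of the 11.5 RPKM in AP3. Against KD, 7 of the 10 fibroblast markers were higher in AP3 and 1 lower on both days, with median log2 changes of 0.99 at D0 and 1.57 at D3, where 13.5% and 11.6% of all entries were higher. In the same comparison *Thbs1* was higher on both days, *Tagln*, *Cnn1* and *Acta2* at D3, and 11 of 24 other YAP targets at D0. At D0, however, *Cnn1* was 3.44-fold lower and *Tagln* had a ratio of 0.846. *Ctgf* and *Cyr61* were within 1.5-fold on both days. At D3 the other YAP targets had a median log2 change of -0.18. The part of these markers in the levels of those genes was not tested. In bulk RNA, fewer cells of a type and less RNA per cell cannot be told apart.

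Markers of primitive and visceral endoderm went the other way, with 7, 7 and 5 of 7 higher at D3, where 14.1%, 14.0% and 14.7% of all entries were higher, and 0 lower. They summed to 16.9, 21.7 and 48.6 RPKM at D0 and to 77.6, 194 and 107 RPKM at D3. Most of the D3 sums was *Dab2*, at 41.8, 129 and 70.3 RPKM. The 4 markers of parietal endoderm summed to 13.6, 12.7 and 37.9 RPKM at D0 and to 63.0, 126 and 72.0 RPKM at D3, but most of the D3 sums was *Srgn*, at 54.1, 116 and 64.7 RPKM. Of the 4, 2 were higher and 1 lower at D3 in WT and in KD, and 1 was higher and 2 lower in AP3, with *Thbd* lower in each line. The shares of all entries lower at D3 were 16.5%, 16.2% and 16.3%. At D0 all 4 were higher in AP3 than in KD, against 13.5% of all entries. KD had the highest sum of either list at D3, and the lowest *Tagln* level of the 3 lines. AP3 lay above WT in both sums at D3 and in *Tagln* too, at 8.41 against 2.80 RPKM. Endothelial markers summed to 8.81 to 15.6 RPKM, mostly *Pecam1*, which ESCs express too. *Cdh5* and *Kdr*, which mark endothelium more closely, were highest in AP3 D3, at 1.60 and 1.36 RPKM against 0.248 and 0.142 in WT D3. *Pecam1* was lower there than in WT D3, at 10.1 against 14.2 RPKM, and *Tek* was at 1.25 against 1.02. Of the 4 endothelial markers, 2 were thus higher and 0 lower in AP3 than in WT at D3. The shares of all entries were 10.4% and 11.7%. *Tagln* and *Cnn1* were also highest within D3 in that library. The part of these cell types in the levels of the 10 genes was not tested.

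Last, the genes whose profile over the 6 libraries was most like that of *Acta2* and of *Ctgf* were found among entries with a mean of at least 1 RPKM, by the root mean square distance of log2(RPKM + 1) after subtracting each gene's mean. The smallest distances to *Acta2* were those of *Cald1* (0.128), *Dysf* (0.145), *Flnc* (0.157), *Lgals3* (0.158) and *Fez1* (0.160). *Cald1* and *Flnc*, which encodes filamin C, an actin crosslinker, belong to the actin cytoskeleton as *Acta2* does. Among the 10 genes the closest to *Acta2* was *Myl9*, at a distance of 0.313. The smallest distances to *Ctgf* were those of *Snora15* (0.178), *Zfp36* (0.185), *Gadd45g* (0.186), *Dusp1* (0.190) and *Ptrf* (0.203). *Snora15* was at 1.93 to 3.21 RPKM at D0 and at 0 in every D3 library, so its distance depends on the 1 added to RPKM. *Zfp36* and *Dusp1* are among the immediate early targets of SRF described above. The closest to *Ctgf* among the 10 genes was *Acta2*, at 0.490, ahead of *Cyr61* at 0.601. With 6 libraries, which share the split into D0 and D3, many genes have like profiles, and the distances are a description.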

How the data were processed

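Poly(A) RNA was made into Illumina TruSeq libraries by the authors, and reads were aligned to mm9 with Tophat and Bowtie 0.12.7. The authors deposited 1 table of RPKM per gene from Cufflinks 1.3.0, with 1 column for each of the 6 libraries. The deposited log2 ratios between lines, which are the authors' own comparisons, were not used. Whether counting used strand is not given in the sources used here, so reads from opposite strands of overlapping genes may be mixed.

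Changes were computed as log2((RPKM + 0.001)/(RPKM + 0.001)), with a 1.5-fold threshold, over all 21639 entries. With 1 library per condition there was no test. Depth was estimated from genes with 1 annotated transcript over 1.5 kb (2647 genes), where the lowest RPKM values step by the worth of 1 read. Estimated reads of the 10 genes used the median length of annotated transcripts and gave exact (Clopper-Pearson) 95% intervals of each ratio. As PCR copies were not marked, reads are not independent molecules, and the intervals cover counting error only. Changes of *Actg2*, whose counting intervals all hold 1 at the median length, are counted by the threshold and listed as log2 values, but no direction is read from them. Positions, exons, coding sequences and promoters come from NCBIM37 (mm9) with GENCODE vM1. The scripts were tested on simulated data.

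The 10 genes and the gene lists were chosen with earlier results of these data known. All 10 genes, the regulators and the marker genes could be named. From the target lists, up to 4 genes with the largest change per comparison were named, and for *Acta2* and *Ctgf* the 5 entries with the most similar profile. Alternatives were a 2-fold threshold, larger pseudocounts (0.1 and 1), keeping entries with a mean of at least 1 RPKM, centring on the median ratio, adding up entries of one symbol, and the longest transcript for the intervals. Analyses ran in Python 3.11.15 (Biopython 1.88, matplotlib 3.10.9, scipy 1.17.1, pandas 2.3.3 and numpy 2.4.6).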

Additional observations from a re-analysis of the deposited data

Results flagged for a closer look

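Some genes passed 1.5-fold in opposite directions under the same contrast. The difference between the contrasts was not tested, as each condition has 1 library. For *Tagln*, the log2 change of AP3 against WT was -1.52 at D0 and 1.59 at D3. For *Cnn1*, the same contrast was -0.67 at D0 and 2.09 at D3, the change from D0 to D3 was -0.67 in WT and 2.09 in AP3, and AP3 against KD was -1.78 at D0 and 0.77 at D3. The negative values of *Cnn1* against or within WT have counting intervals that hold no change.

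For *Actg2*, the log2 change from D0 to D3 was -1.70 in WT, 1.57 in KD and -0.86 in AP3, and AP3 against KD was 1.64 at D0 and -0.78 at D3. With at most 5.04 estimated reads of *Actg2* in any library at its median transcript length, the counting interval of each of these ratios holds 1, and no direction is read from them.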

How the results depend on the processing

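No paired analysis was run, and each comparison sets 1 library against 1 other and comes from no test. A fit of day over all 6 libraries with line as a block, which takes the 3 lines as replicates of a day, was not run. Of the 90 log2 changes of the 10 genes over the 9 comparisons, none that passed the threshold changed sign under the alternatives run, and of the others only *Tpm1* from D0 to D3 in KD did (from 0.01 to -0.04 when centred). With a pseudocount of 1, 16 no longer passed 1.5-fold, and with 0.1, 6 did not. Numbers of genes past the threshold that moved by more than 1.5 times were these. For AP3 against WT at D0, the count of 3 became 1 with a pseudocount of 1 and 1 with the filter on mean RPKM, and at D3 the count of 5 became 3 with the filter and 3 at a 2-fold threshold. For KD against WT, the count of 4 at D0 became 2 under the same pseudocount and 2 under the filter, and the count of 1 at D3 became 0 under both. For AP3 against KD, the count of 3 at D0 became 1 under the filter, and the count of 5 at D3 became 1 with a pseudocount of 1, 3 under the filter and 1 at 2-fold. The filter removes *Actg2* and *Cnn1*, which accounts for its effect. The counts for D3 against D0 stayed between 5 and 8 in each line. Centring brought *Myl9* in AP3 against WT at D3 past the threshold (log2 0.59). With a pseudocount of 1, *Acta2* from D0 to D3 in AP3 (-0.57) no longer passed. With the longest transcript, the counting interval left out no change in 3 more of the 90 ratios, for *Tpm1* in AP3 against WT and against KD at D3, and for *Actg2* in KD against WT at D0. Few reads limit *Actg2*, *Cnn1* and *Myl9*, and the absence of replicate libraries limits all genes.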
